A study of Arabidopsis thaliana with 4 samples.

Results

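Roots of the Arabidopsis thaliana double mutant ein3eil1 and of its wild type Col were compared after both had been exposed to cadmium (Cd). The comparison covers 273 gene models out of 1518 that the deposited tables list for the series. These 273 are the models that stand in the tables of both genotypes and that reached at least 1 RPKM (reads per kilobase of model length, scaled to the reads of the library) in either Cd library. Another 17 of the 290 models common to both tables stayed below that minimum. The labels give the mutant as ein3-1eil1-1 and the wild type as Col-0. All seedlings were 5 days old and had grown on MS medium, a standard mineral medium, and the Cd groups then received 150 µM CdSO4 for 6 h. The groups were ein3eil1 with Cd, Col with Cd, untreated ein3eil1 and untreated Col, with 1 library each. Root tip and primary root are both given as the tissue, and 1 protocol sentence also names shoots. The labels do not say whether the untreated plants were kept for the same time.

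EIN3 and EIL1 are the transcription factors at the end of the ethylene pathway. In the absence of ethylene the receptors keep the kinase CTR1 active and EIN3 and EIL1 are degraded; when ethylene binds, EIN2 signals to the nucleus, both factors accumulate and switch on downstream genes. In roots this pathway is known for slowing elongation and for promoting root hairs, and plants exposed to Cd are known to make more ethylene. Cd itself binds thiols and is taken up in part by the iron transporter IRT1, and plants trap it with glutathione and with the phytochelatins made from it, which draws on sulfate uptake and assimilation.

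The tables limit the comparison. Each table lists only models that differed at least 2-fold between Cd and untreated roots of that genotype, so every model here had such a Cd difference in both genotypes. The 711 models listed for ein3eil1 alone and the 517 listed for Col alone are not compared here. With 1 library on each side there was no replicate check, so no test across plants could be made and genotype and library cannot be told apart. Intervals are 95% exact Clopper-Pearson intervals computed from the reads of both Cd libraries, and cover counting error only. The library totals recovered from the tables were 16802110 reads for ein3eil1 with Cd, 16773595 for Col with Cd, 16993296 for untreated ein3eil1 and 19192279 for untreated Col. Neither EIN3 nor EIL1 is listed in either table, so the genotype could not be checked from its own genes.

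With Cd, 63 of the 273 models (23.1%) were at least 2-fold higher in ein3eil1 than in Col, 42 (15.4%) were at least 2-fold lower, and 168 lay between. Those shares are the background against which each gene group below is read. The log2 ratio of ein3eil1 over Col ran from -3.87 to 5.20 with a median of 0.33, and 178 ratios were above 0 and 95 below. The whole set was therefore shifted towards ein3eil1; after subtraction of that median, 43 models passed 2-fold on the ein3eil1 side and 51 on the Col side. Among genes named below, that subtraction ended the 2-fold calls of HSP70, BCAT4, IPMI1, IPMI2, GSTF9, SDI1, BGLU28, IRT1, SESA4 and TIP2;3. The reads summed over both Cd libraries had a median of 423 per model and ran from 15 to 10602. Counting error was small beside many of these ratios, since the interval left out a ratio of 1 for all 63 higher and all 42 lower models, and also for 100 of the 168 between. The interval lay wholly past 2-fold for 38 of the higher and 26 of the lower models.

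**Figure D1:**
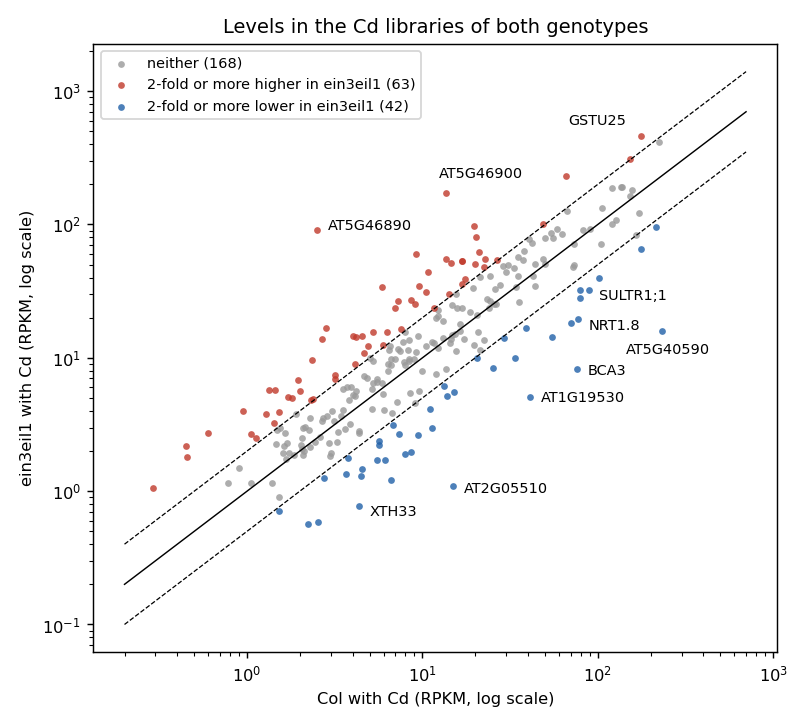
Level of each of the 273 models in ein3eil1 with Cd and in Col with Cd, in RPKM on log axes, with lines at equal levels and at 2-fold differences. The cloud lies slightly on the ein3eil1 side, and the pair AT5G46890 and AT5G46900 lies farthest from it on that side while AT5G40590 and BCA3 lie far on the Col side.

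The models that stood highest in ein3eil1 included those of a pair of neighbouring lipid transfer proteins, small heat shock proteins, an annexin, LSU3 of the sulfur limitation response and the glucosyltransferase UGT74E2. Those that stood lowest included a C1 domain protein, a glycine-rich protein, the carbonic anhydrase BCA3, AT1G19530 of unknown function and the nitrate transporter NRT1.8. Both orders are over models that reached 10 RPKM in a Cd library. By function, 7 of 11 chaperones and 6 of 15 genes of methionine-derived glucosinolate synthesis were at least 2-fold higher in ein3eil1, while 2 of 3 nitrate transport genes and the BTB-TAZ genes BT1 and BT2 were at least 2-fold lower. With the overall shift taken out, 6 chaperones and 3 glucosinolate genes were at least 2-fold higher, beside 43 of all 273 models. Most cytochromes P450, peroxidases and zinc finger, MYB or NAC proteins of the set differed less than 2-fold, as did 168 of all 273 models.

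**Figure D2:**
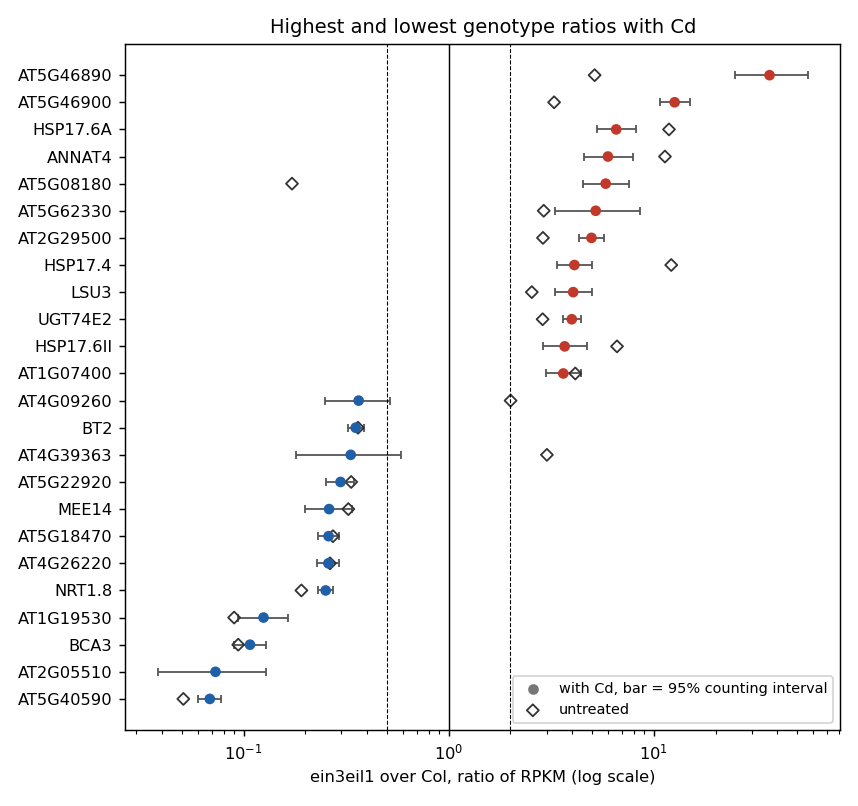
Ratio of ein3eil1 over Col (log axis) for the 12 highest and 12 lowest models of those that reached 10 RPKM in at least 1 Cd library; filled points are ratios with Cd with their 95% counting intervals, open diamonds are ratios in untreated roots, and dashed lines mark 2-fold. AT5G46890 lies highest at 36.7-fold and AT5G40590 lowest at 14.6-fold lower, and the untreated diamond of AT5G08180 lies on the opposite side of 1.

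The largest ratios belonged to AT5G46890 and AT5G46900, which code for small secreted proteins of the lipid transfer and 2S albumin superfamily, whose known members bind lipids in a hydrophobic pocket. AT5G46890 had 91.5 RPKM in ein3eil1 with Cd, 2.5 RPKM in Col with Cd, 444 RPKM in untreated ein3eil1 and 86.3 RPKM in untreated Col. Its level with Cd was 36.7-fold higher in ein3eil1 (interval 24.9 to 56.4), from 955 reads in ein3eil1 against 26 reads in Col. AT5G46900 had 173 RPKM in ein3eil1 with Cd, 13.7 RPKM in Col with Cd, 478 RPKM in untreated ein3eil1 and 147 RPKM in untreated Col. The level of this neighbour was 12.6-fold higher in ein3eil1 with Cd (interval 10.8 to 14.9). Both genes were lower with Cd than without it in both genotypes, and in each of the 4 libraries AT5G46900 was the higher of the pair. In bulk roots, fewer cells of a type and less RNA per cell cannot be told apart.

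The deposited tables place AT5G46890 on chromosome 5 at 19036296 to 19036916 and AT5G46900 on chromosome 5 at 19039701 to 19040402, both on the minus strand; the build of these coordinates is not given in the sources used here. In the RefSeq annotation of TAIR10.1 they lie 2762 bases apart. Their coding sequences, 384 bases each, are 97.4% identical and share a run of 180 bases without a difference. Reads may therefore have been split between the pair, and the value of each is uncertain for that reason. Within the 250 bases before each gene start, the longest run in common without a difference is 12 bases. Both windows are shown because the pair has the largest ratios; they are RefSeq sequence of TAIR10.1, chr5:19036939-19037188 and chr5:19040457-19040706, minus strand, 5′ to 3′ in the direction of the gene, and capitals mark the common run, which starts 151 bases before the AT5G46890 start and 117 bases before the AT5G46900 start.
AT5G46890: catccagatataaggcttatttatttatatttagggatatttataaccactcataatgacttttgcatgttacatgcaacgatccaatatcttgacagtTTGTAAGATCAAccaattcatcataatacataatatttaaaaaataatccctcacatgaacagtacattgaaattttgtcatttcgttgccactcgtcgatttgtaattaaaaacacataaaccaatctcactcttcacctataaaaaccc
AT5G46900: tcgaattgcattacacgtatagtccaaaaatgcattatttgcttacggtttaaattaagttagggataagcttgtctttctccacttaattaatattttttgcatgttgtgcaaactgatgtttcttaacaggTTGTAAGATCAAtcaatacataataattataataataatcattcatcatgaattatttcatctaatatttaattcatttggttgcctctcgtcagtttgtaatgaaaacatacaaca

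The other 4 models described as members of this superfamily did not share the pattern. AT1G62510 was lower in the mutant, with 14.2 RPKM in ein3eil1 and 29.2 RPKM in Col with Cd, a 2.06-fold difference (interval 1.73 to 2.46). AT2G44300, AT1G62500 and AT2G44290 differed less than 2-fold, at log2 ratios of 0.75, 0.15 and -0.32.

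Of 11 models described as heat shock proteins or chaperones, 7 were at least 2-fold higher in ein3eil1 with Cd, against the background of 23.1%, and 1 was lower. Their median log2 ratio was 1.34, beside 0.33 over all 273 models, and with that shift taken out 6 were at least 2-fold higher. A separate list of 23 heat shock genes, which names most of the same genes, had 6 kept members, of which 5 were higher and MBF1C was between, and the median of the 6 was 1.61. Small heat shock proteins bind unfolding proteins and keep them from aggregating until ATP-driven chaperones of the HSP70 and HSP90 families refold them.

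Among the small heat shock proteins, HSP17.6A had 60.1 RPKM in ein3eil1 with Cd, 9.16 RPKM in Col with Cd, 9.79 RPKM in untreated ein3eil1 and 0.826 RPKM in untreated Col. It was 6.56-fold higher in ein3eil1 with Cd (interval 5.29 to 8.20). HSP17.4 had 44.2 RPKM in ein3eil1 with Cd, 10.8 RPKM in Col with Cd, 11.4 RPKM in untreated ein3eil1 and 0.936 RPKM in untreated Col. For both genes the untreated mutant was at about the level that the wild type reached with Cd. HSP17.4 was 4.10-fold higher with Cd (interval 3.38 to 5.00). HSP17.6II had 26.5 RPKM in ein3eil1 with Cd, 7.22 RPKM in Col with Cd, 6.87 RPKM in untreated ein3eil1 and 1.04 RPKM in untreated Col, and was 3.68-fold higher with Cd (interval 2.88 to 4.73). The coding sequences of HSP17.6A and HSP17.6II are 86.1% identical, with at most 33 bases in a row in common, so some reads could have been shared between them.

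The other models described as HSP20-like chaperones lay on the same side. AT2G29500 had 97.7 RPKM in ein3eil1 with Cd, 19.7 RPKM in Col with Cd, 24.8 RPKM in untreated ein3eil1 and 8.60 RPKM in untreated Col. It was 4.97-fold higher in ein3eil1 with Cd (interval 4.31 to 5.74). AT1G07400 had 34.6 RPKM in ein3eil1 and 9.57 RPKM in Col with Cd, a 3.62-fold difference (interval 2.98 to 4.43). AT5G51440 had 77.3 RPKM in ein3eil1 and 40.4 RPKM in Col with Cd, which at 1.92-fold stayed just under the threshold.

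Among the larger chaperones and the co-factors, HSP90.1 had 50.2 RPKM in ein3eil1 with Cd, 19.8 RPKM in Col with Cd, 11.6 RPKM in untreated ein3eil1 and 5.83 RPKM in untreated Col, and was 2.53-fold higher with Cd (interval 2.33 to 2.75). HSP70 (AT3G12580) had 100.4 RPKM in ein3eil1 and 48.7 RPKM in Col with Cd, a 2.06-fold difference whose interval of 1.95 to 2.18 spanned the threshold. MBF1C, a transcriptional coactivator of the heat response, had 12.3 RPKM in ein3eil1 and 6.53 RPKM in Col with Cd, 1.88-fold higher. J8, a chloroplast DnaJ protein, lay on the Col side, with 39.4 RPKM in ein3eil1 and 101 RPKM in Col with Cd, 2.56-fold lower (interval 2.32 to 2.83).

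In the endoplasmic reticulum, BIP3, the inducible HSP70 of that compartment, had 2.23 RPKM in ein3eil1 and 2.03 RPKM in Col with Cd, and its interval of 0.785 to 1.53 for the ratio included 1. ERDJ3A, a DnaJ partner, had 6.90 RPKM in ein3eil1 and 5.48 RPKM in Col with Cd. Of 5 kept members of the endoplasmic reticulum stress list, none was 2-fold higher and SEC31A, a coat protein of vesicles leaving the compartment, was 2.2-fold lower (interval 1.61 to 3.03), at 1.25 RPKM in ein3eil1 and 2.75 RPKM in Col. SARA1A and TIN1 of the same list were 1.94-fold higher (interval 1.09 to 3.58) and 1.54-fold higher (interval 1.2 to 1.99).

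Heat shock factors bind inverted repeats of GAA. Only the form GAANNTTC was searched here, which is its own reverse complement and so reads alike on both strands. The form with the same parts in the opposite order was not searched. A window without GAANNTTC may therefore still hold an inverted repeat of GAA. Of the 5 at least 2-fold higher members of the heat shock list, only HSP17.4 held GAANNTTC in its 250-base upstream window. It held this motif in 2 places, starting 99 and 18 bases before the gene start. The window is shown for that reason, as RefSeq sequence of TAIR10.1, chr3:16984868-16985117, minus strand, 5′ to 3′ in the direction of the gene, with the motif in capitals.
HSP17.4: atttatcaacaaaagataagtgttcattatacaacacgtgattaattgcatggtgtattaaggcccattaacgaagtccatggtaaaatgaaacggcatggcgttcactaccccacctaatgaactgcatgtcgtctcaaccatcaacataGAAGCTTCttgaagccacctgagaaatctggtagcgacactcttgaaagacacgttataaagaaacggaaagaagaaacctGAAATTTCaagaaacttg

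Over all models, motif matches did not separate the sides in a common way. GAANNTTC stood in 9.52% of the windows of the 63 higher models and in 26.8% of the 41 lower models with a window, beside 9.55% of 27443 protein-coding genes. A motif of the EIN3 type, searched as ATGNANCT on both strands, stood in 6.35% of the higher and 9.76% of the lower models, beside 12.5% of all protein-coding genes. The sulfur-responsive motif GAGAC, searched on both strands, stood in 20.6% of the higher and 24.4% of the lower models, beside 25.8% of all. Among the 269 kept models with a window, 12.6% held GAANNTTC, 8.55% held the EIN3-type motif and 23.8% held GAGAC. No motif contains another. These matches describe letters only and were given no test.

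Aliphatic glucosinolates are sulfur-rich defence compounds that Arabidopsis builds from chain-elongated methionine. Of a list of 27 genes of this pathway 15 were kept, 6 were at least 2-fold higher in ein3eil1 with Cd and none was lower, and all 15 ratios were above 1. The median log2 ratio of the 15 was 0.76, beside 0.33 over all 273 models. With that overall shift taken out, 3 of the 15 were at least 2-fold higher, beside 43 of all 273 models. Of the 15 shifted ratios, 12 lay above 0 and those of MAM1, MAM3 and IIL1 lay below it. Every kept member was lower with Cd than without it in both genotypes.

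In the elongation steps, BCAT4, the aminotransferase that starts the pathway, had 54.6 RPKM in ein3eil1 with Cd, 22.9 RPKM in Col with Cd, 479 RPKM in untreated ein3eil1 and 230.4 RPKM in untreated Col. It was 2.39-fold higher in ein3eil1 with Cd (interval 2.15 to 2.65). The condensing enzymes differed little: MAM3 had 92.1 RPKM in ein3eil1 and 90.11 RPKM in Col with Cd, and MAM1 had 14.2 RPKM in ein3eil1 and 13.1 RPKM in Col. The isomerase subunits split by kind. The small subunits IPMI1 and IPMI2 were 2.18-fold and 2.22-fold higher in ein3eil1, whereas the large subunit IIL1 had 181 RPKM in ein3eil1 and 156 RPKM in Col with Cd, 1.16-fold higher.

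In the core structure steps, CYP79F2 and CYP83A1, the cytochromes that turn elongated methionine into the reactive intermediate, were 1.69-fold and 1.96-fold higher, at 13.0 and 30.3 RPKM in ein3eil1 against 7.71 and 15.5 RPKM in Col. The glutathione transferases assigned to the sulfur donation step were further apart. GSTU20 had 53.4 RPKM in ein3eil1 with Cd, 16.8 RPKM in Col with Cd, 256 RPKM in untreated ein3eil1 and 99.7 RPKM in untreated Col, and was 3.168-fold higher with Cd (interval 2.75 to 3.66). GSTF11 had 5.00 RPKM in ein3eil1 and 1.79 RPKM in Col with Cd, 2.79-fold higher (interval 1.73 to 4.65). The sulfotransferases SOT17 and SOT18, which finish the core, were 1.68-fold and 1.61-fold higher.

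The side chain oxidase FMO GS-OX1 was 4.83-fold higher, but from low levels of 2.17 RPKM in ein3eil1 and 0.450 RPKM in Col with Cd, and its interval ran from 2.56 to 9.87. Outside the list, APK2, the kinase that makes the activated sulfate used by the sulfotransferases, had 62.6 RPKM in ein3eil1 and 21.0 RPKM in Col with Cd, 2.98-fold higher (interval 2.67 to 3.33). AK3, an aspartate kinase of the route to methionine, had 14.5 RPKM in ein3eil1 and 4.54 RPKM in Col with Cd, 3.2-fold higher (interval 2.69 to 3.84).

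The indolic branch, which starts from tryptophan and also leads to the phytoalexin camalexin, had 5 kept members of 19 and a median log2 ratio of 0.00. CYP79B3 and CYP83B1, the entry enzymes, were 1.72-fold and 1.40-fold higher in ein3eil1. CYP81F2, which modifies the indole ring, had 14.7 RPKM in both genotypes with Cd. CYP71A12, an enzyme of the camalexin side, had 3.14 RPKM in ein3eil1 and 6.75 RPKM in Col with Cd, 2.15-fold lower (interval 1.66 to 2.80).

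Among the 8 kept glutathione transferases of a list of 37, which in general join glutathione to reactive or foreign molecules, 3 were at least 2-fold higher in ein3eil1 with Cd, 1 was lower, and the median log2 ratio was 0.83. GSTU25 had 458 RPKM in ein3eil1 with Cd, 176 RPKM in Col with Cd, 192 RPKM in untreated ein3eil1 and 59.0 RPKM in untreated Col. It was 2.6-fold higher with Cd (interval 2.49 to 2.73), and its neighbour GSTU24 was 1.89-fold higher at 419 RPKM in ein3eil1 and 222 RPKM in Col. The untreated mutant thus already stood at about the level that Col reached with Cd. The coding sequences of the pair are 79.4% identical. GSTU11 had 31.3 RPKM in ein3eil1 and 10.5 RPKM in Col with Cd, 2.99-fold higher (interval 2.53 to 3.55). GSTF9 had 311 RPKM in ein3eil1 and 153 RPKM in Col with Cd, a 2.03-fold difference whose interval of 1.94 to 2.13 spanned the threshold. GSTU4 lay on the other side, with 6.17 RPKM in ein3eil1 and 13.3 RPKM in Col with Cd, and GSTF6 had 23.7 RPKM in ein3eil1 and 24.1 RPKM in Col.

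Roots short of sulfur raise sulfate transporters, sulfate assimilation enzymes and small LSU proteins, and they break down stored glucosinolates. Of a list of 22 such genes 14 were kept, of which 5 were at least 2-fold higher in ein3eil1 with Cd, 1 was lower and 8 lay between, with a median log2 ratio of 0.45. Of the 14 log2 ratios 12 were above 0, and 7 once the overall shift was taken out. All 14 genes were higher with Cd than without it in both genotypes. The LSU proteins, which bind and modulate other proteins, made up 3 of the 5. LSU3 had 55.4 RPKM in ein3eil1 with Cd, 13.7 RPKM in Col with Cd, 1.08 RPKM in untreated ein3eil1 and 0.424 RPKM in untreated Col, and was 4.05-fold higher with Cd (interval 3.29 to 5.02). LSU1 had 51.6 RPKM in ein3eil1 with Cd and 14.6 RPKM in Col with Cd, 3.54-fold higher (interval 2.90 to 4.35), and both untreated libraries held 1 read of it. LSU2 had 53.3 RPKM in ein3eil1 with Cd, 16.7 RPKM in Col with Cd, 4.66 RPKM in untreated ein3eil1 and 2.44 RPKM in untreated Col, and was 3.19-fold higher with Cd (interval 2.66 to 3.84). The 3 LSU genes thus stood close to each other within each genotype with Cd. The coding sequences of LSU1 and LSU3 are 80.7% identical, with at most 23 bases in a row in common, so some reads could have been shared between them.

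The other higher members sat nearer to the threshold. SDI1, a repressor of glucosinolate synthesis, had 30.0 RPKM in ein3eil1 and 14.2 RPKM in Col with Cd, 2.117-fold higher (interval 1.83 to 2.46). BGLU28, a glucosidase that breaks glucosinolates down, had 54.1 RPKM in ein3eil1 and 26.7 RPKM in Col with Cd, 2.03-fold higher (interval 1.87 to 2.2). Its relative BGLU30 was 1.98-fold higher.

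The kept gene of sulfate uptake at the root surface was on the opposite side. SULTR1;2, another sulfate transporter of the list, was listed for Col alone and was not compared. SULTR1;1, a high-affinity transporter that takes up sulfate at the root surface, had 32.5 RPKM in ein3eil1 with Cd, 88.6 RPKM in Col with Cd, 3.08 RPKM in untreated ein3eil1 and 17.0 RPKM in untreated Col. It was 2.73-fold lower in ein3eil1 with Cd (interval 2.56 to 2.91), and 5.52-fold lower in the untreated mutant. Transport and assimilation further in differed less than 2-fold. SULTR2;1, which carries sulfate in the vascular tissue, had 41.3 RPKM in ein3eil1 and 35.0 RPKM in Col with Cd, and SULTR4;2, which releases it from the vacuole, had 1.87 RPKM in ein3eil1 and 1.84 RPKM in Col. The reductases APR2 and APR3, which commit sulfate to reduction, were 1.21-fold and 1.12-fold higher, SERAT3;2, a serine acetyltransferase, was 1.55-fold higher (interval 1.02 to 2.36), and GGCT2;1, which degrades glutathione, was 1.33-fold lower, at 15.6 RPKM in ein3eil1 and 20.7 RPKM in Col.

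**Figure D3:**
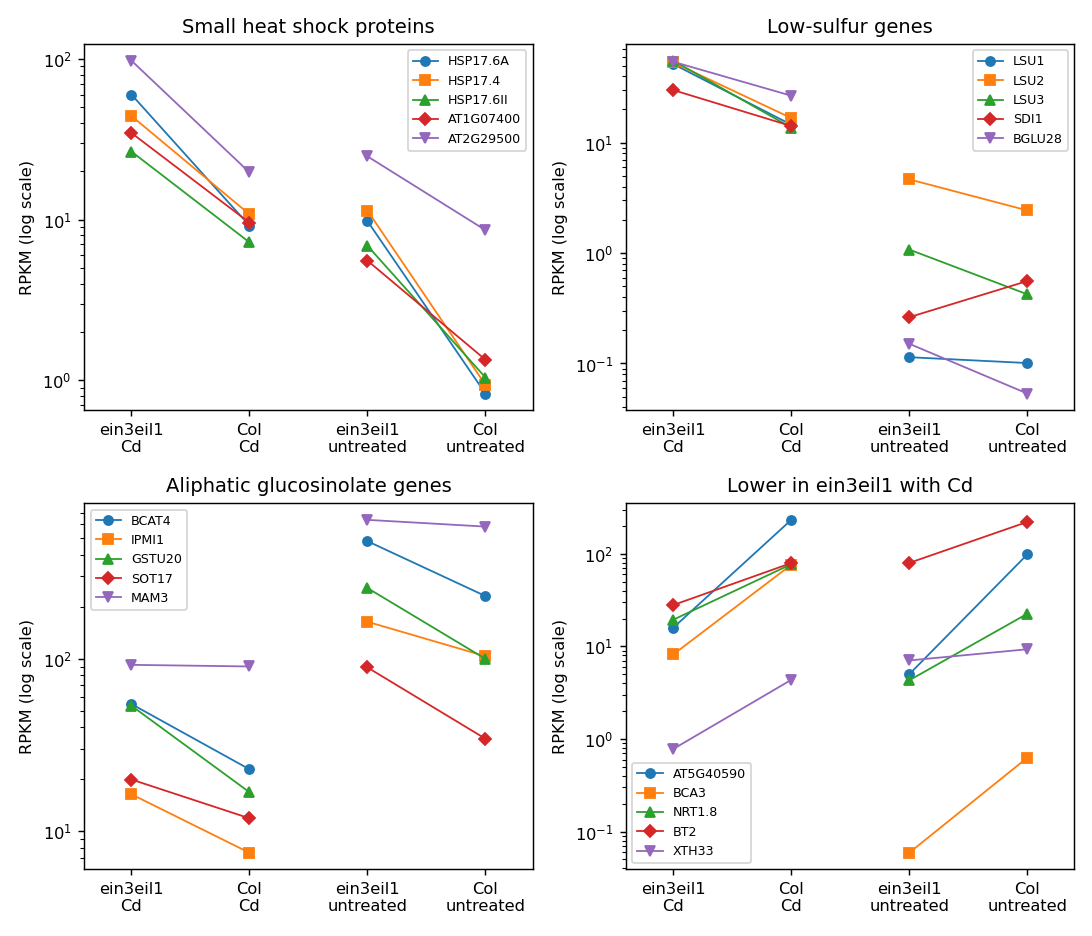
Level in RPKM (log axes) of 20 genes in ein3eil1 with Cd, Col with Cd, untreated ein3eil1 and untreated Col, 1 library each, with lines joining the genotypes within a condition. The LSU genes lie under 5 RPKM in both untreated libraries and higher in ein3eil1 than in Col with Cd, while the small heat shock genes lie higher in ein3eil1 in both conditions.

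Several single genes of other functions also stood high in the mutant. ANNAT4, an annexin that binds membranes when calcium is present, had 16.8 RPKM in ein3eil1 with Cd, 2.81 RPKM in Col with Cd, 77.3 RPKM in untreated ein3eil1 and 6.82 RPKM in untreated Col, and was 5.97-fold higher with Cd (interval 4.57 to 7.93). UGT74E2, which attaches glucose to the auxin precursor indole-3-butyric acid, had 79.9 RPKM in ein3eil1 with Cd, 20.1 RPKM in Col with Cd, 21.5 RPKM in untreated ein3eil1 and 7.48 RPKM in untreated Col, and was 3.98-fold higher with Cd (interval 3.61 to 4.40). Both therefore stood above Col in treated and in untreated roots. AT5G62330, whose closest described protein is an invertase or pectin methylesterase inhibitor, had 13.9 RPKM in ein3eil1 and 2.67 RPKM in Col with Cd, 5.21-fold higher (interval 3.31 to 8.53). AT5G33355, a defensin-like gene, had 232 RPKM in ein3eil1 and 65.4 RPKM in Col with Cd, 3.54-fold higher (interval 3.14 to 4.01). The other defensin-like gene of the set, AT4G11393, had 164 RPKM in ein3eil1 and 153 RPKM in Col with Cd.

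A group of 10 models was described as proteins of lipid or acyl group metabolism, and is mixed by function. Of these, 6 were at least 2-fold higher in ein3eil1 with Cd, against the background of 23.1%, and 1 was lower. Their median log2 ratio was 1.19, beside 0.33 over all 273 models. With that shift taken out, 5 were at least 2-fold higher. The 6 include the carrier protein mtACP3, at a log2 ratio of 1.65 with Cd and -1.18 in untreated roots. CER4, a reductase that makes fatty alcohols for surface lipids, was 3.99-fold higher (interval 2.14 to 7.99), at 1.81 RPKM in ein3eil1 and 0.454 RPKM in Col with Cd, where untreated roots had 20.6 RPKM in ein3eil1 and 17.3 RPKM in Col. The GDSL lipases LTL1 and AT2G23540 were 2.84-fold and 2.52-fold higher. SAD6, a stearoyl carrier protein desaturase, was 2.56-fold lower (interval 1.85 to 3.6).

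Of the iron uptake list, 3 of 27 members were kept and each lay in a different class. IRT1, the root iron transporter that also carries Cd, had 10.8 RPKM in ein3eil1 with Cd, 4.63 RPKM in Col with Cd, 53.7 RPKM in untreated ein3eil1 and 59.7 RPKM in untreated Col. It was 2.33-fold higher in ein3eil1 with Cd (interval 1.85 to 2.95), while in untreated roots the genotypes stood at similar levels. FRO2, the reductase that supplies IRT1 with ferrous iron, had 8.94 RPKM in ein3eil1 with Cd, 6.38 RPKM in Col with Cd, 51.4 RPKM in untreated ein3eil1 and 86.2 RPKM in untreated Col, 1.40-fold higher with Cd (interval 1.19 to 1.65). VTL1, a vacuolar iron transporter-like protein, was 3.1-fold lower (interval 1.89 to 5.26), at 1.46 RPKM in ein3eil1 and 4.51 RPKM in Col. Of a list of 32 metal binding and transport loci, 2 were kept, and this count leaves out metal genes outside the list. Among those left out, ZIP5 had a log2 ratio of 0.73 with Cd. AT5G52760, described as a copper transport family protein, lay on the Col side with a log2 ratio of -2.45. It had 1.21 RPKM in ein3eil1 with Cd, 6.62 RPKM in Col with Cd, 4.79 RPKM in untreated ein3eil1 and 2.94 RPKM in untreated Col. MT2A, a metallothionein, had 79.5 RPKM in ein3eil1 with Cd, 49.8 RPKM in Col with Cd, 36.4 RPKM in untreated ein3eil1 and 121 RPKM in untreated Col, and ZIP9, a zinc transporter family member, was 1.15-fold higher with Cd.

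**Figure D4:**
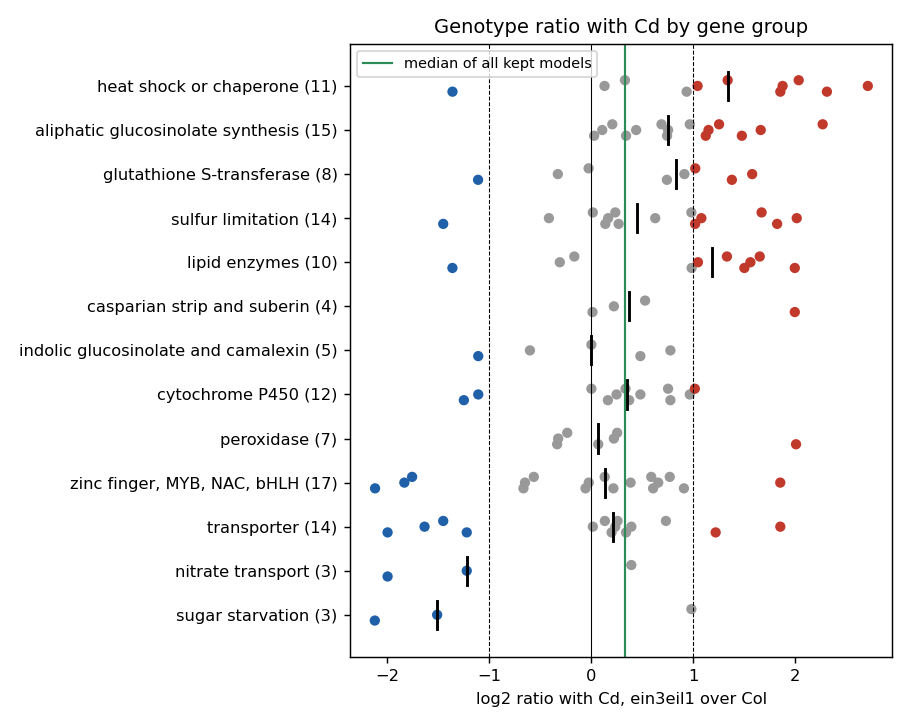
Log2 ratio of ein3eil1 over Col with Cd for the kept members of each gene list or description group, 1 point per model, with a black bar at the group median, a green line at the median of all 273 models and dashed lines at 2-fold. Chaperones and aliphatic glucosinolate genes lie mostly to the right of 0, NRT1.8 and NRT3.1 lie left of -1, and most cytochromes P450 and peroxidases lie between the 2-fold lines.

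On the Col side, the largest difference was that of AT5G40590, a cysteine- and histidine-rich C1 domain protein. It had 15.9 RPKM in ein3eil1 with Cd, 233 RPKM in Col with Cd, 5.00 RPKM in untreated ein3eil1 and 98.4 RPKM in untreated Col. With Cd it was 14.6-fold lower in ein3eil1 (interval 12.9 to 16.6), and the mutant with Cd stayed under the untreated wild type. The deposited tables place it on chromosome 5 at 16251437 to 16252412, minus strand. AT2G05510, a glycine-rich protein, had 1.09 RPKM in ein3eil1 and 15.0 RPKM in Col with Cd, from 13 and 178 reads, and was 13.7-fold lower (interval 7.82 to 26.3). In untreated roots ein3eil1 had 0 reads of it and Col had 410 reads, so against a floor of 3 reads it was at least 121-fold lower there.

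BCA3, a beta carbonic anhydrase that converts carbon dioxide and bicarbonate into each other, had 8.19 RPKM in ein3eil1 with Cd, 76.2 RPKM in Col with Cd, 0.0591 RPKM in untreated ein3eil1 and 0.628 RPKM in untreated Col. It was 9.31-fold lower in ein3eil1 with Cd (interval 7.80 to 11.2). It had few reads in untreated roots, 1 in ein3eil1 and 12 in Col, and was higher with Cd in both genotypes. AT1G19530, a protein of unknown function, had 5.10 RPKM in ein3eil1 with Cd, 40.8 RPKM in Col with Cd, 13.7 RPKM in untreated ein3eil1 and 152 RPKM in untreated Col, 8.0-fold lower with Cd (interval 6.10 to 10.6).

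Of 15 nitrate transport genes 3 were kept, 2 were at least 2-fold lower in ein3eil1 with Cd, against the background of 15.4%, and NRT2.4 lay between. NRT1.8, which draws nitrate back out of the xylem sap and is known to respond to Cd, had 19.4 RPKM in ein3eil1 with Cd, 77.3 RPKM in Col with Cd, 4.31 RPKM in untreated ein3eil1 and 22.5 RPKM in untreated Col. It was 3.98-fold lower in ein3eil1 with Cd (interval 3.66 to 4.33). NRT3.1, the partner protein that high-affinity nitrate transporters need, had 16.8 RPKM in ein3eil1 with Cd, 39.1 RPKM in Col with Cd, 44.5 RPKM in untreated ein3eil1 and 12.3 RPKM in untreated Col, 2.32-fold lower with Cd (interval 2.01 to 2.70). The 2 genes differed without Cd: NRT1.8 was lower and NRT3.1 higher in the untreated mutant. The RefSeq annotation lists 3 transcripts at the NRT3.1 locus, and how reads were shared among them is not given in the sources used here.

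Of 26 genes that respond to sugar starvation or act in amino acid turnover, 3 were kept and 2 were at least 2-fold lower. BT2, a BTB-TAZ protein that responds to sugar and nitrogen supply, had 28.0 RPKM in ein3eil1 with Cd, 79.5 RPKM in Col with Cd, 79.7 RPKM in untreated ein3eil1 and 221 RPKM in untreated Col, 2.84-fold lower with Cd (interval 2.6 to 3.11). Its relative BT1 was 2.05-fold lower, at 9.95 RPKM in ein3eil1 and 20.4 RPKM in Col with Cd. DIN10, a gene induced in the dark and by low sugar, was 4.34-fold lower (interval 2.84 to 6.86), at the low levels of 0.587 RPKM in ein3eil1 and 2.55 RPKM in Col. BGLU30, which is on this list as well as on the sulfur list, was on the ein3eil1 side.

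Further lower genes of known or described families included AT4G26220, a methyltransferase of the S-adenosylmethionine-dependent superfamily, at 18.23 RPKM in ein3eil1 and 70.4 RPKM in Col with Cd. AT5G18470, a mannose-binding lectin family member, had 14.3 RPKM in ein3eil1 and 55.0 RPKM in Col with Cd. The folds were 3.86 and 3.85, with intervals of 3.41 to 4.38 and 3.43 to 4.34. MEE14, named for an embryo arrest phenotype, was 3.83-fold lower (interval 2.96 to 5.02), and AT5G22920, a CHY and RING zinc finger protein, was 3.37-fold lower (interval 2.89 to 3.95).

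XTH33, an enzyme of the family that cuts and rejoins xyloglucan in the cell wall, had 0.780 RPKM in ein3eil1 with Cd, 4.35 RPKM in Col with Cd, 7.05 RPKM in untreated ein3eil1 and 9.32 RPKM in untreated Col. It was 5.58-fold lower in ein3eil1 with Cd (interval 3.14 to 10.7), from 14 reads against 78 reads, and 1.32-fold lower in untreated ein3eil1. Of 37 XTH and expansin genes listed, the other kept one, XTH23, had 17.9 RPKM in ein3eil1 and 16.4 RPKM in Col with Cd.

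Among 17 models whose description names a zinc finger, MYB, NAC, bHLH or bZIP protein, 1 was at least 2-fold higher, 3 were lower and 13 lay between. MYB39, a MYB factor known to promote suberin in the endodermis, had 14.5 RPKM in ein3eil1 with Cd, 4.02 RPKM in Col with Cd, 4.99 RPKM in untreated ein3eil1 and 1.02 RPKM in untreated Col, 3.62-fold higher with Cd (interval 2.87 to 4.60). NAC048 and MYB31 were 4.33-fold and 3.55-fold lower, and AT5G22920 above was also lower. Of 12 cytochromes P450, 1 was higher, 2 were lower and 9 lay between, and of 7 peroxidases 1 was higher and 6 lay between. The higher peroxidase, AT5G19880, had 5.77 RPKM in ein3eil1 and 1.43 RPKM in Col with Cd, 4.03-fold higher (interval 2.68 to 6.22).

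The set also held genes that differed little between genotypes with Cd. GRI, an extracellular regulator of cell death, had 34.2 RPKM in both genotypes. NAC001 had 41.1 RPKM in ein3eil1 and 42.6 RPKM in Col, and LAC3, a laccase, had 25.3 RPKM in ein3eil1 and 25.5 RPKM in Col. CRK11, a receptor-like kinase, had 25.5 RPKM in ein3eil1 and 26.2 RPKM in Col, and PROPEP1, precursor of a peptide that amplifies defence, had 50.9 RPKM in ein3eil1 and 49.9 RPKM in Col. With the overall shift taken out, PROPEP1 turned to the Col side, as did PER64, XTH23, ZIP9, BIP3, APR2, APR3, SULTR2;1, SULTR4;2, AT1G62500, AT4G11393 and CYP81F2, each by less than 2-fold.

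CASP2 builds the Casparian strip domain, and PER64 is a peroxidase that acts there. CASP2 had 54.0 RPKM in ein3eil1 and 37.4 RPKM in Col with Cd, and PER64 had 50.9 RPKM in ein3eil1 and 43.6 RPKM in Col. In untreated roots both differed less than 1.5-fold between genotypes. The water channel genes lay on both sides. TIP2;3 had 47.6 RPKM in ein3eil1 and 22.3 RPKM in Col with Cd, 2.13-fold higher, and PIP2;4 was 1.62-fold higher. SIP2;1, a small intrinsic protein, was lower, at 1.34 RPKM in ein3eil1 and 3.66 RPKM in Col.

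Markers of root cap (7 loci), root meristem (16), root hair (19), xylem (9) and photosynthesis (17) had no kept member, so the share of these cells in the libraries was not tested. From a list of 18 seed maturation genes, SESA4 was kept, at 2.51 RPKM in ein3eil1 and 1.13 RPKM in Col with Cd. No kept member was found either for ethylene synthesis and signalling (29 loci), ERF factors (32), auxin (36), phosphate starvation (26), or abscisic acid and drought (34). Since a model enters the set only when both tables list it, this says nothing of their levels.

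Because both tables also give the untreated libraries, the genotype ratio of the same models without Cd could be set beside that with Cd. Of 267 models with more than 3 reads in at least 1 untreated library, 25.8% stood at least 2-fold above Col in the untreated mutant and 16.5% at least 2-fold below it, shares close to those with Cd. Of the 63 models higher with Cd, 38 were also higher in the untreated mutant, 19 were under 2-fold there, 5 were lower, and 1 had no untreated value. Of the 42 models lower with Cd, 27 were also lower without it, 4 were under 2-fold, 10 were higher, and 1 had no value. Of the 168 models between with Cd, 131 were between in untreated roots as well. Across the 265 models with reads in both untreated libraries, the log2 ratios with and without Cd had a Pearson correlation of 0.51, given as a description since genes are not independent replicates.

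**Figure D5:**
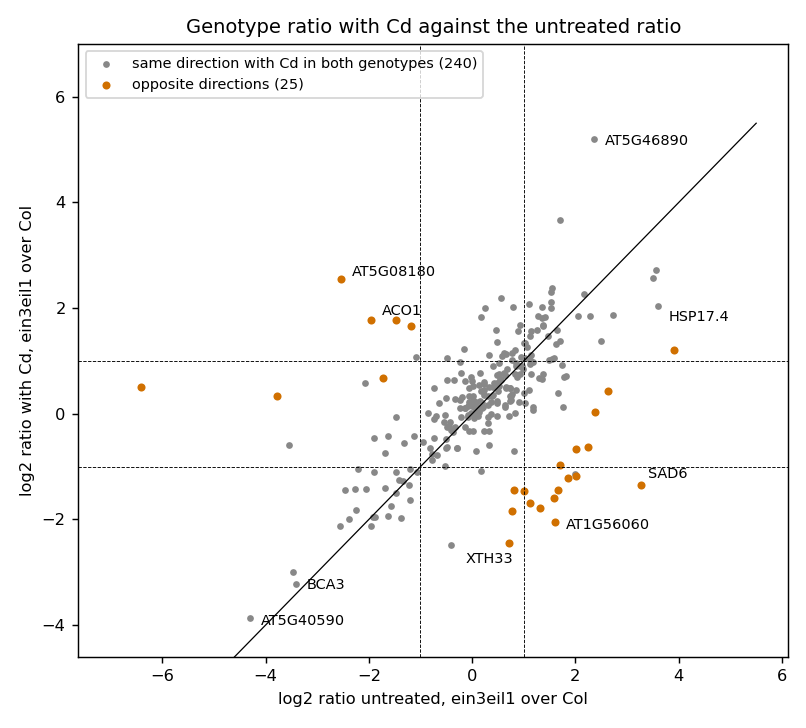
Log2 ratio of ein3eil1 over Col with Cd (vertical axis) against that in untreated roots (horizontal axis) for the 265 models with reads in both untreated libraries, 1 point each; the line marks equal ratios and dashed lines 2-fold. Orange points are models whose Cd difference had opposite directions in the 2 genotypes, and AT5G08180 and SAD6 are among those far from the line.

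The genotype ratio varied with how a model answered Cd. Of 149 models that were higher with Cd in both genotypes, 26 were at least 2-fold higher and 17 lower in ein3eil1 with Cd, with a median log2 ratio of 0.24. Of 97 that were lower with Cd in both genotypes, 32 were higher and 12 lower in ein3eil1, with a median of 0.49. A further 18 models were lower with Cd in ein3eil1 and higher with Cd in Col, and 12 of them were at least 2-fold lower in ein3eil1 with Cd. The reverse held for 9 models, which were higher with Cd in ein3eil1 and lower in Col, and 4 of them were at least 2-fold higher in ein3eil1 with Cd. The Cd libraries enter both this grouping and the ratio, so the sides of these opposed models follow in part from the grouping itself.

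These 27 models include some with large differences in both conditions. AT5G08180, a protein of the ribosomal L7Ae family, had 34.2 RPKM in ein3eil1 with Cd, 5.87 RPKM in Col with Cd, 5.24 RPKM in untreated ein3eil1 and 30.4 RPKM in untreated Col. The mutant with Cd and the untreated wild type were thus both high, and the other 2 libraries low; with Cd the difference was 5.83-fold higher in ein3eil1 (interval 4.54 to 7.57). AT5G22440, a ribosomal L1p family protein, showed the same order, with 23.7 RPKM in ein3eil1 with Cd, 6.94 RPKM in Col with Cd, 7.98 RPKM in untreated ein3eil1 and 22.3 RPKM in untreated Col. AT5G47700, an acidic protein of the large ribosomal subunit, had the reverse order, with 94.96 RPKM in ein3eil1 with Cd, 214 RPKM in Col with Cd, 418 RPKM in untreated ein3eil1 and 104 RPKM in untreated Col. All 3 are at loci with several reference transcripts, and how reads were shared among the transcripts of a locus is not given in the sources used here.

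PROPEP1 and LOX3 belong to the same 27 but ended close together. LOX3, a lipoxygenase of jasmonate synthesis, had 8.88 RPKM in ein3eil1 with Cd, 6.61 RPKM in Col with Cd, 19.9 RPKM in untreated ein3eil1 and 3.21 RPKM in untreated Col. PROPEP1 had 103 RPKM in untreated ein3eil1 and 19.7 RPKM in untreated Col, so PROPEP1 was 5.21-fold and LOX3 6.19-fold higher in the mutant without Cd, while both were under 1.5-fold apart with it.

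At the edge of the minimum, the nearest models left out were AT5G54700, at 0.990 RPKM in ein3eil1 and 0.992 RPKM in Col with Cd, and AT2G45040, at 0.894 RPKM in ein3eil1 and 0.848 RPKM in Col. The nearest models kept were AT3G54830, an amino acid transporter family member, at 1.05 RPKM in ein3eil1 and 0.291 RPKM in Col, and AT2G46380, at 1.14 RPKM in ein3eil1 and 1.05 RPKM in Col.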

How the data were processed

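Total RNA was extracted from roots with Trizol and copied with random primers, and the libraries were sequenced on an Illumina HiSeq or another instrument, per the labels' protocols. No aligner, counter, strand setting or genome build is named there or in the tables. The authors deposited 1 table per genotype with, per the file headers, the read count of both libraries, RPKM, a log2 ratio, a p-value and an FDR. The deposited RPKM equals the count over model length and 1 total per library, with 0.001 entered for 0 reads, and the tables list only models past the authors' fold and FDR thresholds. The deposited FDR, a p-value adjusted by the authors, was used for 1 alternative only.

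Groups came from the sample titles. Ratios of ein3eil1 over Col were computed from the counts and library totals, without a pseudocount, with exact Clopper-Pearson intervals (SciPy 1.17.1, Python 3.11.15, pandas 2.3.3). PCR copies of a molecule are counted as separate reads, and the intervals hold counting error alone. A fold against 0 reads used a floor of 3 reads per library. The intervals were tested on simulated counts for 273 models, where 96.7% held the true ratio. Names, transcript numbers and upstream windows came from RefSeq's TAIR10.1 annotation.

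The models and the 28 gene lists (771 entries, 719 matched to a locus) and 20 description patterns were chosen with earlier results of these data known. Named genes were, among models with 10 RPKM or more in either Cd library, the 12 highest and 12 lowest ratios, up to 4 kept members per function list, and XTH33, LSU1, MT2A, FRO2 and IRT1. Others named were chosen after their values were seen. The alternatives were other thresholds for the fold and the minimum, an added pseudocount, centred ratios, a stricter FDR, loci with 1 transcript, 1 model per locus and a call that also used the interval.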

Additional observations from a re-analysis of the deposited data

Results flagged for a closer look

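A set of 15 models differed at least 2-fold between genotypes in both conditions, but in opposite directions, and 10 of them reached 10 RPKM or more in a library. Each had 1 library per group, so the difference between conditions was not tested. The values are log2 ratios of ein3eil1 over Col.

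Higher in ein3eil1 with Cd and lower in the untreated mutant were the ribosomal L7Ae family gene AT5G08180 (2.54 with Cd, -2.54 untreated), the ribosomal L1p family gene AT5G22440 (1.77 with Cd, -1.48 untreated), the aconitase ACO1 (1.77 with Cd, -1.95 untreated), the mitochondrial acyl carrier protein mtACP3 (1.65 with Cd, -1.18 untreated) and the sulfur limitation gene SDI1 (1.08 with Cd, -1.09 untreated). The untreated libraries held only 5 reads of SDI1 in ein3eil1 and 12 in Col.

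Lower in ein3eil1 with Cd and higher in the untreated mutant were the acidic ribosomal protein gene AT5G47700 (-1.17 with Cd, 2.01 untreated), the nitrate transport partner NRT3.1 (-1.22 with Cd, 1.86 untreated), the desaturase SAD6 (-1.36 with Cd, 3.27 untreated), AT4G09260 of unknown function (-1.46 with Cd, 1.00 untreated) and the small nucleolar RNA AT4G39363 (-1.59 with Cd, 1.59 untreated). AT4G39363 had 17 reads in ein3eil1 with Cd, 51 in Col with Cd, 56 in untreated ein3eil1 and 21 in untreated Col.

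Of these 10 models, 6 are at loci with several reference transcripts and 4 at loci with 1. Of the whole set of 15, 4 are at loci with 1 reference transcript, beside 178 of all 273 models. The part that the counting of transcripts played was not tested.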

How the results depend on the processing

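With a fold threshold of 1.5, 104 models were higher and 60 lower in ein3eil1 and 109 lay between; with a threshold of 4, 15 were higher and 9 lower. At loci with 1 reference transcript, 178 models, 46 were higher, 22 lower and 110 between, which follows in part from fewer models. The counts stayed within 1.5 times the 63, 42 and 168 reported without a minimum and with a minimum of 5 RPKM. The same held with a pseudocount of 1 RPKM, after centring and with an FDR of 1e-05 or less. Taking 1 model per locus could not change a count, since the 273 models lie at 273 loci. Adding the interval to the call changed none either, since it already left out a ratio of 1 for all 63 and 42. A pseudocount of 1 RPKM took the ratios of 5 of the 66 named models (FMO GS-OX1, CER4, DIN10, XTH33 and AT2G05510) outside their counting intervals. With it CER4 was under 2-fold at a log2 ratio of 0.95, as were SEC31A at -0.74, CYP71A12 at -0.90 and GSTU4 at -0.99. That pseudocount left 50 models at least 2-fold higher and 33 lower. Centring moved 42 of the 66 named models. No paired analysis was possible because each group had 1 library. Depth limits models with few reads, such as FMO GS-OX1, CER4, VTL1 and XTH33, whose intervals are wide.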
